A study of Mus musculus with 12 samples.

Results

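The 4 angiogenesis membrane arrays compared here measured fracture callus RNA at post fracture days 14 and 10, and they are 4 of the 12 arrays of the series. They were chosen by their titles: HET PFD 14 and HET PFD 10, from mice labelled HET for HIF-1a, and WT PFD 14 and WT PFD 10, from mice labelled WT for HIF-1a. All mice had a fixed closed fracture of 1 femur, and the callus, the repair tissue that bridges the break, was taken whole. The sources used here do not give the strain or age of the mice or how the HIF-1a allele was altered. Each array was hybridised with 1 pool that held equal amounts of RNA from 3 animals, of which 3 ug was amplified and labelled with biotin. Each genotype and day therefore has 1 array, and no spread between animals or repeat arrays stands behind any value within a genotype. The remaining arrays are the day 7 angiogenesis arrays and a set for hypoxia genes, from which only the day 14 and day 10 arrays are used here, for the 12 genes printed on both types.

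A closed femoral fracture heals largely through a soft cartilage callus, which blood vessels invade and which bone then replaces. Vascular endothelial growth factors (VEGFs) start and guide the new vessels, angiopoietins and ephrins shape and stabilise them, and matrix proteases open the cartilage to them. HIF-1a is the oxygen-regulated subunit of a transcription factor that activates VEGF and many other genes when oxygen is low. The array holds 100 genes of these pathways, and the comparison asks which of them differ between the soft callus stage and the later stage in each genotype.

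The arrays differed in brightness, and the HET array of day 14 was the dimmest. Genes count as above background where at least 1 spot exceeded the brightest control spot of the same array, a control spot being blank or PUC18 plasmid DNA. That limit was a density of 190.1 in HET callus at day 14 and 162 at day 10. In WT callus it was 374 at day 14 and 490.4 at day 10. Above it stood 44 genes on the HET array of day 14 and 91 at day 10, against 79 on the WT array of day 14 and 76 at day 10. The median density of the 100 genes was 130.0 in HET callus at day 14 and 511 at day 10, against 1129 in WT callus at day 14 and 1435 at day 10. In HET callus 1 gene, Vegfb, was above background only at day 14 and 48 genes only at day 10. In WT callus 11 genes were above background only at day 14 and 8 only at day 10. Idb3, Nrp1, Pgf and Serpinb2 were above background on none of the 4 arrays, which leaves 96 measured genes, 41 of them above background on all 4.

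**Figure D1:**
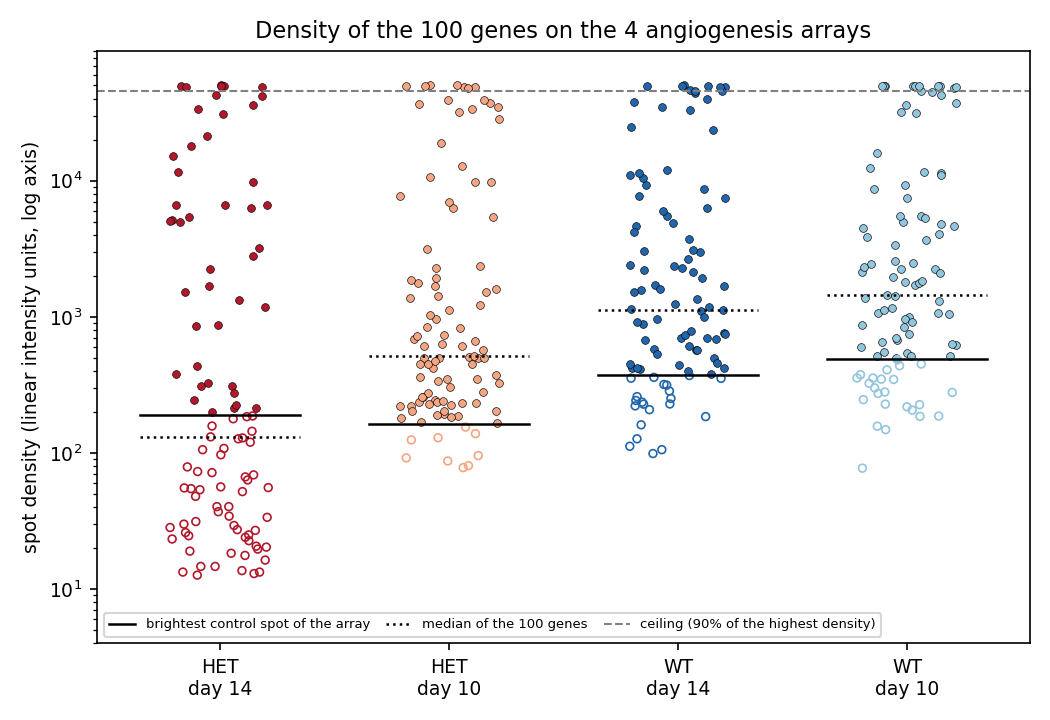
Spot density of each of the 100 genes (log axis) on the 4 angiogenesis arrays, with filled points above background and open points not above it. The dotted median of the HET array of day 14 (130.0) lies below that array's solid control limit (190.1), while the medians of the other 3 arrays lie above theirs.

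The scanner saturated near the highest density of each array, which lay between 49964 and 50779 on these arrays, and a gene at 45701 or more was taken to be at the ceiling. Actb, Ctgf, Fgf7, Fgfr1 and Thbs1 were at the ceiling on all 4 arrays and have no measurable difference. Flt1, Hgf, Rnase4, Sparc, Tgfb3 and Thbs2 were at the ceiling on 1 to 3 arrays, and a difference that uses 1 of those arrays is a bound at most. The spots of the 4 reference genes are the only repeated measure within an array, and their pooled standard deviation below the ceiling was 0.27 log2 units over 12 sets of spots.

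The label of the callus was set against its defining markers. All 5 bone and callus matrix markers on the array (Ctgf, Fgfr3, Fn1, Sparc, Spp1) were above background on all 4 arrays. Of the 8 endothelial markers, 4 were above background in HET callus at day 14 and 8 at day 10, against 6 in WT callus at each day, and Flt1, Nos3, Pecam1 and Tek were so on all 4 arrays. Flt1 was near or at the ceiling, and the other 7 endothelial markers summed to a density of 3938 in HET callus at day 14 and 7155 at day 10, against 13650.3 in WT callus at day 14 and 23131 at day 10. Both macrophage markers, Msr1 and Cd36, were above background on every array, with sums of 14391 in HET callus at day 14 and 40179 at day 10, against 8175 in WT callus at day 14 and 40819.7 at day 10. Of the platelet and blood markers Cxcl4 and F2, 0 were above background in HET callus at day 14 and 1 at day 10, against 0 in WT callus at day 14 and 1 at day 10, and the array carries no muscle marker. These sums are not scaled for the brightness of the arrays, whose median density was also lower at day 14 in both genotypes. Tek made up most of the endothelial sum of HET callus at day 14, with 3193, and was level with its 3123 at day 10. In whole tissue, fewer cells of a type and less RNA per cell cannot be told apart, nor here from a dimmer array.

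Hif1a itself had a density of 6574 in HET callus at day 14 and 6924 at day 10, against 11008 in WT callus at day 14 and 11449 at day 10. Both HET arrays were lower than both WT arrays for Hif1a, but the HET arrays were also dimmer in general. At days 14 and 10 the median gene density was 130.0 and 511 in HET callus, against 1129 and 1435 in WT callus. A lower amount of Hif1a in HET callus can therefore not be read from these unscaled densities. Within each genotype the days differed little, by 0.949-fold in HET callus and 0.962-fold in WT callus as day 14 over day 10. Which part of the transcript its spot reads, and which part was altered in the HET mice, is unknown here, and the spot therefore does not check the genotype labels. On normalized values the day 14 minus day 10 difference of Hif1a was 0.34 log2 units in HET callus and 0.07 in WT callus.

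Before any scaling, most genes were dimmer at day 14. The density was lower at day 14 for 84 of the 100 genes in HET callus and for 62 in WT callus. For folds of density, a gene not above background was set to its array's control limit, and genes at the ceiling or below background on both days were left out. Also left out were genes above background on 1 day alone whose density there was under the limit of the other day's array. In HET callus 11 of 82 genes (13.4%) were at least 2-fold brighter at day 14 and 37 (45.1%) at least 2-fold dimmer, with a median fold of 0.543 as day 14 over day 10. In WT callus 9 of 74 genes (12.2%) were at least 2-fold brighter and 19 (25.7%) at least 2-fold dimmer, with a median fold of 0.731. Of the 68 genes with a fold in both genotypes, Ppia, Spp1 and Tnc (4.41%) were at least 2-fold brighter in each and 15 (22.1%) at least 2-fold dimmer in each. Among the 91 measured genes not at the ceiling on every array, 7 (7.69%) had both day 14 densities above both day 10 densities: Gapdh, Ppia, Rpl13a, Spp1, Tgfbr1, Tnc and Vcam1. For Rpl13a the gap was narrow, with 1508 in HET callus at day 14 and 1417 in WT callus at day 10, and repeat spots overlapped. In 14 genes (15.4%) both day 14 densities lay below both day 10 densities: Angpt1, Cd36, Cdh5, Csf3, Efnb2, Fgf4, Fgf6, Kdr, Msr1, Ptgs2, Ptn, Rnase4, Tgfb3 and Timp2. In both counts a gene not above background was taken to lie anywhere up to its array's limit.

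To set genes against the general brightness of their array, densities were background corrected, taken to log2 and quantile normalized over the 4 arrays, so that a difference of 1 log2 unit is a 2-fold change relative to the other genes. A difference is a bound, written "at least", where 1 of the 2 arrays is below background or at the ceiling. In HET callus 47 genes had a difference or bound, with 14 (29.8%) higher at day 14 by 2-fold or more and 8 (17%) lower by as much and a median of 0.00 log2 units. In WT callus 77 genes had one, with 13 (16.9%) higher and 15 (19.5%) lower by 2-fold or more, with a median of -0.16. A further 40 genes of HET callus had no bound, because on the normalized scale the bound ran against the brighter array. All of them but Hgf were above background at day 10 alone, and all 40 were dimmer at day 14 in density. The HET shares of 29.8% and 17%, also set beside the gene lists below, cover only the genes left. By density the HET shares were 13.4% higher and 45.1% lower. Of 45 genes measured in both genotypes, Fgfr3, Ppia, Spp1, Tgfbr1, Timp1, Tnc and Tnf (15.6%) were at least 2-fold higher in each and Cdh5, Ptgs2 and Ptn (6.67%) at least 2-fold lower in each. Without the quantile step the median measured difference of the 100 genes was -1.22 in HET callus and -0.34 in WT callus, so a normalized value describes a gene's place among the others and not its amount.

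**Figure D2:**
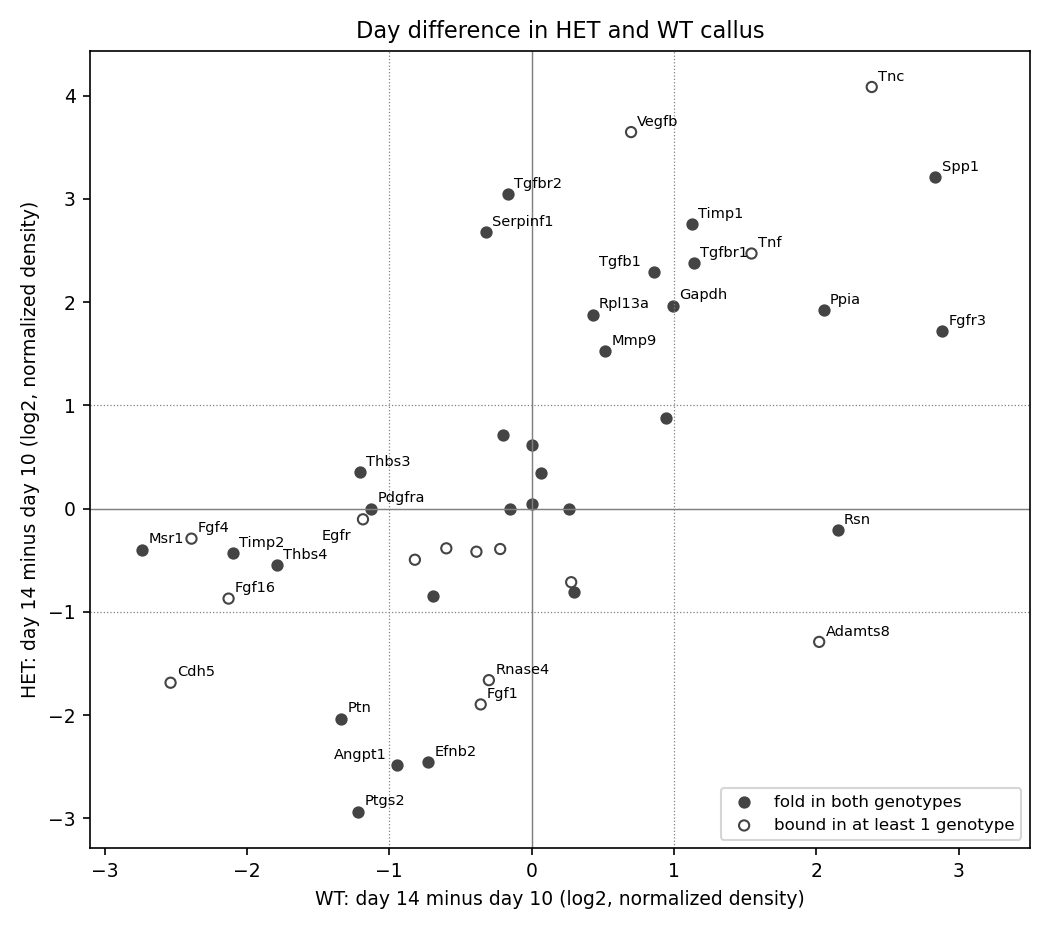
Normalized day 14 minus day 10 difference (log2) of the 45 genes measured in both genotypes, HET callus on the vertical axis and WT callus on the horizontal one, with bounds as open circles and dotted lines at 1 log2 unit. Spp1, Tnc, Ppia and Fgfr3 lie at the upper right, Ptgs2, Ptn and Cdh5 at the lower left, and Adamts8 alone lies beyond 1 unit in opposite directions.

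A limma fit of day over both genotypes, with genotype as a term, found 0 of 96 genes (0%) past an adjusted p of 0.05. Its lowest adjusted p was 0.26, and 13 genes (13.5%) had an unadjusted p under 0.05, 7 of them higher and 6 lower at day 14. The residual has 1 degree of freedom per gene and measures how far the day difference of HET callus departs from that of WT callus. Among the 96 are Actb, Ctgf, Fgf7, Fgfr1 and Thbs1, at the ceiling on all 4 arrays. They have no measurable difference but still enter the moderation across genes and the adjustment. The lowest p belonged to Spp1, 3.02 log2 units higher at day 14 (SE 0.24, unadjusted p 0.00639, limma adjusted p 0.26). Next came Fgf4 at -2.51 (SE 0.22), Cdh5 at -2.37 (SE 0.24), Ppia at 1.99 (SE 0.21) and Fgf16 at -1.87 (SE 0.27), with limma adjusted p values of 0.26 to 0.296. Fgf4, Cdh5 and Fgf16 were below background in HET callus at day 14, and these 3 coefficients and their SE use densities measured there. The bounds of the same genes in HET callus are -0.29 for Fgf4, -1.69 for Cdh5 and -0.87 for Fgf16. None of the gene lists below had a member that passed this test, so their members are described by their values.

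The matrix genes Spp1 and Tnc were brighter at day 14 in both genotypes. Spp1 encodes osteopontin, a matrix phosphoprotein made by bone cells and by hypertrophic cartilage. Its density was 9740.0 in HET callus at day 14 and 1606 at day 10, against 11369 in WT callus at day 14 and 3653 at day 10. Both day 14 arrays were above both day 10 arrays, by 6.07-fold in HET callus and 3.11-fold in WT callus. Tnc encodes tenascin-C, a matrix glycoprotein of healing and growing skeletal tissue. Tnc had a density of 852 in HET callus at day 14 and 181 at day 10, against 2142 in WT callus at day 14 and 483 at day 10, the last just short of that array's limit. The days again did not overlap, and the fold of density was 4.71 in HET callus and at least 4.37 in WT callus. The normalized difference of Spp1 was 3.21 in HET callus and 2.84 in WT callus, and that of Tnc was 4.08 in HET callus and at least 2.39 in WT callus. Both genes were also higher at day 14 in both genotypes under all 4 scalings described below for the reference genes.

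The other matrix genes varied. Sparc, which encodes osteonectin, was bright everywhere, at 48388 in HET callus at day 14 and 38891 at day 10, against 46131 and 47551 in WT callus at days 14 and 10. Fn1, which encodes fibronectin, had 15099 in HET callus at day 14 and 32102 at day 10, against 43946 and 44692 in WT callus at days 14 and 10. Fn1 was thus dimmer at day 14 in HET callus and level in WT callus, with normalized differences of 0.00 in HET callus and 0.26 in WT callus. The integrin subunits Itga5 and Itgav, receptors for fibronectin and osteopontin, could be compared in WT callus, where Itgav had 3076 at day 14 and 2241 at day 10 and Itga5 had 1921 at day 14 and 1071 at day 10. Their normalized differences in WT callus were 1.06 for Itga5 and 1.21 for Itgav, while both were below background in HET callus at day 14. Itgb3 was above background in WT callus only at day 14, with 613. The list holds 11 matrix and integrin genes. In HET callus 2 of 6 were at least 2-fold higher and 0 lower, beside 29.8% and 17% over all genes. In WT callus 4 of 8 were higher and 1 lower, beside 16.9% and 19.5%. The list's median was 0.29 in HET callus and 0.84 in WT callus, beside 0.00 and -0.16 over all genes, at the bound where a gene has one. On measured values, with dim genes at their own density, it was -0.27 in HET callus and 0.62 in WT callus without normalization, 1.41 and 1.04 with median scaling, and -1.83 and -0.29 with reference gene scaling.

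The 250 bases before the RefSeq transcript start (GRCm38.p6) are shown for the pair of matrix genes that were brighter at day 14 in both genotypes, Spp1 and Tnc, and for Ptgs2 and Ptn, which were dimmer in both. Capitals mark the letters TATAAA on the strand of the gene, or the core letters of the HIF-1 binding motif, ACGTG or GCGTG, on either strand, and all 4 sequences run 5′ to 3′ on the gene's own strand. The Spp1 window is chr5:104434861-104435110 on the plus strand and the Tnc window chr4:64047016-64047265 on the minus strand. The Ptgs2 window is chr1:150099781-150100030 on the plus strand and the Ptn window chr6:36810180-36810429 on the minus strand.
Spp1: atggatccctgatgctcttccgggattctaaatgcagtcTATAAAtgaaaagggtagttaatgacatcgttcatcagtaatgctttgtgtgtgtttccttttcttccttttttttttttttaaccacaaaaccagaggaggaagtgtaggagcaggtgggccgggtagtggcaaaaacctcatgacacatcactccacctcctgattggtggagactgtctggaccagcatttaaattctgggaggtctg
Tnc: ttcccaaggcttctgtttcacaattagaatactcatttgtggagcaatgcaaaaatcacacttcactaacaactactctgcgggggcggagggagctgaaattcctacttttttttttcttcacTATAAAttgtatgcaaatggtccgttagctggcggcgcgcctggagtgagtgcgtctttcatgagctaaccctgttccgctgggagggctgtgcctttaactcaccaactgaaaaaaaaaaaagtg
Ptgs2: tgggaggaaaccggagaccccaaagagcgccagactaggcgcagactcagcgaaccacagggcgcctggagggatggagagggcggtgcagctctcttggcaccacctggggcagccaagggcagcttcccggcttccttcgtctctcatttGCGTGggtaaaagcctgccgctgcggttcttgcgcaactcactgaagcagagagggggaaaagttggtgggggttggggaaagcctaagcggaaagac
Ptn: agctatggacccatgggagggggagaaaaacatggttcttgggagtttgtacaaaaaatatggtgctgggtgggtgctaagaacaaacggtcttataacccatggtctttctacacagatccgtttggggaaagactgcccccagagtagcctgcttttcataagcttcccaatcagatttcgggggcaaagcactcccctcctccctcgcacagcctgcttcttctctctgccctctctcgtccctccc
The Spp1 and Tnc windows each hold TATAAA 1 time, and 7.59% of 32851 windows of the same length hold those letters. Its first base lies 211 bases before the start in Spp1 and 126 bases before it in Tnc. The Ptgs2 window holds 1 GCGTG, and ACGTG or GCGTG is found in 38.6% of the windows. The other windows hold none of these core letters, and the Ptn window holds neither motif. Spp1 and Tnc have 2 listed starts each, of which the first was used.

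**Figure D3:**
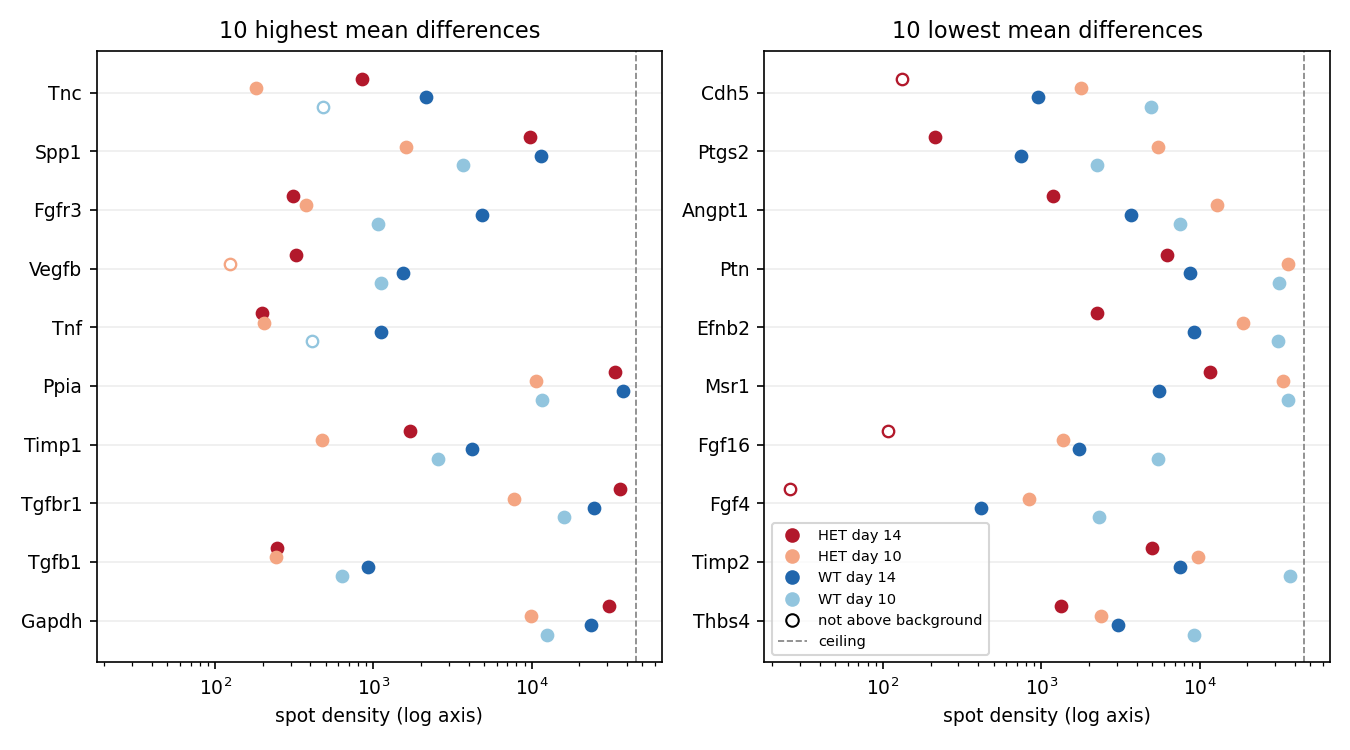
Spot density (log axis) on the 4 arrays for the 10 genes with the highest and the 10 with the lowest mean normalized difference among genes of the same direction in both genotypes, with open points not above background. For Spp1, Tnc, Ppia, Tgfbr1 and Gapdh both day 14 points lie right of both day 10 points, and for Cdh5, Ptgs2, Angpt1, Ptn, Efnb2, Msr1, Fgf4 and Timp2 both lie left of them.

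The reference genes were not level between the days. Ppia, which encodes cyclophilin A, had 33518 in HET callus at day 14 and 10575 at day 10, against 37605 in WT callus at day 14 and 11639.9 at day 10. Gapdh, a glycolytic enzyme and known HIF-1 target, had 30925 in HET callus at day 14 and 9847 at day 10, against 23697 in WT callus at day 14 and 12418 at day 10. For both genes each day 14 array was brighter than each day 10 array, by 3.17-fold in HET callus and 3.23-fold in WT callus for Ppia, and by 3.14-fold in HET callus and 1.91-fold in WT callus for Gapdh. Rpl13a, a ribosomal protein gene, had 1508 in HET callus at day 14 and 663 at day 10, and in WT callus 1560.5 at day 14 and 1417 at day 10, a smaller gap. Actb was at the ceiling throughout. The median normalized difference of the other 3 was 1.92 in HET callus and 0.99 in WT callus. Scaling to Gapdh, Ppia and Rpl13a lowered the median of all genes to -2.77 in HET callus and -1.26 in WT callus. Under it 4 genes remained higher at day 14 in both genotypes (Gapdh, Ppia, Spp1 and Tnc), against 12 of the 45 genes measured in both genotypes under quantile, median and no scaling. Gapdh and Ppia help to set the reference scaling, so their sign under it is no separate result. Gapdh stood at only 0.10 in HET callus and 0.01 in WT callus.

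**Figure D4:**
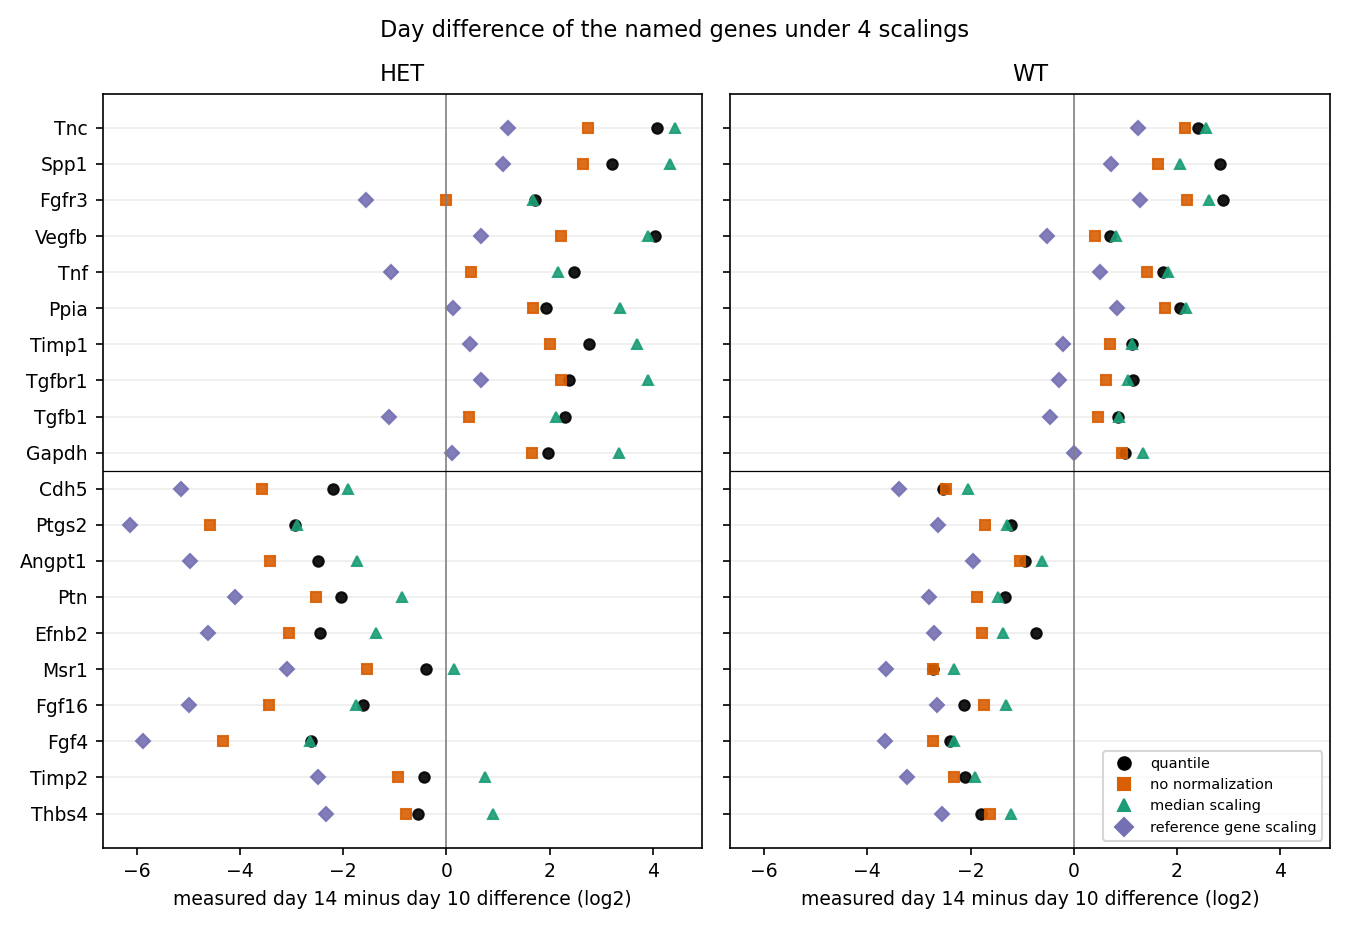
Measured day 14 minus day 10 difference (log2) of the 20 genes with the highest and lowest mean difference, in HET callus at left and WT callus at right, under the quantile, no, median and reference gene scalings, with genes below background at their measured value and not at a bound. Tnc and Spp1 stay right of 0 under all 4 scalings, whereas Fgfr3, Tnf and Tgfb1 in HET callus lie left of 0 under reference gene scaling.

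VEGF ligands and receptors showed few measurable differences. Vegfa, the main attractant of endothelial cells, had 178 in HET callus at day 14, below background, and 350.2 at day 10, against 1004 in WT callus at day 14 and 834 at day 10. Vegfb, a ligand of Flt1, had 325 in HET callus at day 14 and 125 at day 10, below background, against 1526 in WT callus at day 14 and 1117 at day 10. Vegfb was brighter at day 14 in both genotypes, at least 2.0-fold in HET callus and 1.37-fold in WT callus. Vegfc, the lymphatic growth factor, had a measurable difference in WT callus alone, with 2199 at day 14 and 148 at day 10, below background, a fold of density of at least 4.48 and a normalized difference of at least 2.52. In HET callus Vegfc had 129 at day 14, below background, and 169 at day 10, and has no difference. Kdr, the main signalling receptor for Vegfa, had 25.0 in HET callus at day 14, below background, and 497 at day 10, against 354 in WT callus at day 14, below background, and 1051 at day 10. Kdr was thus above background only at day 10 in each genotype, and its density was at least 2.62-fold lower at day 14 in HET callus and at least 2.81-fold lower in WT callus. Flt1, the receptor that binds Vegfa most tightly, was close to or at the ceiling on all 4 arrays, and Figf, an older name of Vegfd, was above background only in WT callus at day 14, with 418. Of the 8 genes of this family, 2 had a difference in HET callus. Of these, 1 was at least 2-fold higher and 0 lower, beside 29.8% and 17% over all genes. In WT callus 5 had one, 1 at least 2-fold higher and 1 lower, beside 16.9% and 19.5% over all genes. The list's median there was 0.69, beside -0.16 over all genes. On measured values it was 0.40 without normalization, 0.82 with median scaling and -0.51 with reference gene scaling.

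Among angiopoietins, Angpt1 was lower at day 14. Angpt1 activates the Tek receptor and stabilises vessels, and it had 1185 in HET callus at day 14 and 12802 at day 10, against 3716 in WT callus at day 14 and 7489 at day 10. Both day 14 densities lay below both day 10 densities, 10.8-fold lower in HET callus and 2.02-fold lower in WT callus, and the normalized differences were -2.48 in HET callus and -0.95 in WT callus. Angpt2, its context-dependent antagonist, had 14.6 in HET callus at day 14, below background, and 1230.4 at day 10, against 496 in WT callus at day 14 and 437 at day 10, below background. Tek, the receptor, had 3193 in HET callus at day 14 and 3123 at day 10, against 7666 in WT callus at day 14 and 10955 at day 10. Tek was level between days in HET callus and 1.43-fold lower at day 14 in WT callus, and Tie1 was near background in WT callus on both days. Of the 4 genes of this pathway, 1 of 3 was at least 2-fold lower in HET callus, beside 17% over all genes. In WT callus 0 of 4 were, beside 19.5%. The list's medians were -0.71 in HET callus and 0.00 in WT callus, beside 0.00 and -0.16 over all genes. On measured values these were -3.41 in HET callus and -0.35 in WT callus without normalization, -1.73 and 0.06 with median scaling, and -4.97 and -1.27 with reference gene scaling.

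Endothelial genes did not share one direction. Cdh5 encodes VE-cadherin, the junction protein of endothelium. It had 131 in HET callus at day 14, below background, and 1781 at day 10, against 960.4 in WT callus at day 14 and 4936 at day 10. The density of Cdh5 was at least 9.37-fold lower at day 14 in HET callus and 5.14-fold lower in WT callus, and the days did not overlap. Pecam1, an adhesion molecule of endothelium and platelets, had 277 in HET callus at day 14 and 615 at day 10, against 1592 in WT callus at day 14 and 2113 at day 10. Nos3, the endothelial nitric oxide synthase, had 215 in HET callus at day 14 and 720.1 at day 10, against 2399 in WT callus at day 14 and 3352 at day 10. Both densities were lower at day 14, and their normalized differences were 0.62 for Pecam1 and 0.04 for Nos3 in HET callus and 0.00 for each in WT callus. Vcam1, a leukocyte adhesion molecule that skeletal cells also make, ran the other way, with 4992 in HET callus at day 14 and 2296 at day 10, against 5962 in WT callus at day 14 and 4069 at day 10. Of the 10 endothelial genes, 0 were at least 2-fold higher in either genotype, beside 29.8% (HET) and 16.9% (WT) of all genes. Lower were 1 of 6 in HET callus and 2 of 8, Cdh5 and Kdr, in WT callus, beside 17% and 19.5%. The list's medians were 0.02 in HET callus and 0.00 in WT callus, beside 0.00 and -0.16 over all genes. On measured values these medians were -0.58 in HET callus and -0.49 in WT callus without normalization, 1.1 and -0.08 with median scaling, and -2.14 and -1.41 with reference gene scaling.

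Ephrins and their Eph receptors, membrane-bound partners that mark arteries and veins, included 3 genes that were lower at day 14 in density in both genotypes. Efnb2, the arterial ephrin, had 2239.8 in HET callus at day 14 and 18766 at day 10, against 9236 in WT callus at day 14 and 31497 at day 10. Its days did not overlap, with densities 8.38-fold lower at day 14 in HET callus and 3.41-fold lower in WT callus. Ephb4, its venous receptor, had 72.9 in HET callus at day 14, below background, and 572 at day 10, against 765 in WT callus at day 14 and 2436 at day 10. Ephb4 was at least 3.01-fold lower at day 14 in HET callus and 3.19-fold lower in WT callus, and Efna5 was at least 5.07-fold lower in HET callus and 1.60-fold lower in WT callus. Of the 4 ephrin genes, 1 of 2 was at least 2-fold lower in HET callus, beside 17% over all genes. In WT callus 1 of 3 was, beside 19.5%. Higher by as much were 0 in either genotype, beside 29.8% (HET) and 16.9% (WT) of all genes. The list's medians were -1.44 in HET callus and -0.73 in WT callus, beside 0.00 and -0.16 over all genes. On measured values they were -4.08 in HET callus and -1.78 in WT callus without normalization, -2.40 and -1.37 with median scaling, and -5.63 and -2.70 with reference gene scaling.

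The growth factors Ptn, Fgf4 and Fgf16 were dimmer at day 14 in both genotypes, and the receptors Fgfr3 and Fgfr4 were brighter at day 14 in WT callus. Ptn encodes pleiotrophin, a heparin-binding factor of developing bone and cartilage. It had 6264 in HET callus at day 14 and 36381 at day 10, against 8746 in WT callus at day 14 and 31932 at day 10. Both day 14 arrays were below both day 10 arrays, by 5.81-fold in HET callus and 3.65-fold in WT callus, and the normalized differences were -2.03 in HET callus and -1.34 in WT callus. Mdk, the related midkine, was above background only at day 10 in each genotype. Fgf4, a fibroblast growth factor best known from the limb bud, had 26.0 in HET callus at day 14, below background, and 839 at day 10, against 417 in WT callus at day 14 and 2305 at day 10. The density of Fgf4 was at least 4.41-fold lower at day 14 in HET callus and 5.53-fold lower in WT callus. Fgf16, another member of that family, had 108 in HET callus at day 14, below background, and 1363 at day 10, against 1720.1 in WT callus at day 14 and 5503 at day 10. Fgf16 was lower at day 14 in each genotype, although WT callus at day 14 exceeded HET callus at day 10. Fgf1 was at least 10.2-fold lower in HET callus and 1.51-fold lower in WT callus, and Fgf2 was above background only at day 10 in each genotype.

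Fgfr3, a receptor that restrains cartilage growth, had 308 in HET callus at day 14 and 374 at day 10, against 4868 in WT callus at day 14 and 1066 at day 10. In WT callus Fgfr3 was 4.57-fold brighter at day 14, while in HET callus its density was slightly lower at day 14 and the normalized difference of 1.72 is relative to the dimmer array. Fgfr4 had 1676 in WT callus at day 14 and 556 at day 10, 3.02-fold brighter, and in HET callus 63.3 at day 14, below background, and 349.5 at day 10. Pdgfra and Egfr, receptors of the platelet-derived and epidermal growth factors, were lower at day 14 in density in both genotypes. Pdgfra had 432 in HET callus at day 14 and 1433 at day 10, against 2363 in WT callus at day 14 and 4787 at day 10. Fgf16 is not on the list of growth factors and receptors and is not in its counts. That list holds 21 genes. In HET callus 1 of 8 was at least 2-fold higher and 2 lower, beside 29.8% and 17% over all genes. In WT callus 2 of 15 were higher and 4 lower, beside 16.9% and 19.5%. The list's medians were -0.20 in HET callus and -0.46 in WT callus, beside 0.00 and -0.16 over all genes. On measured values they were -3.23 in HET callus and -1.06 in WT callus without normalization, -1.55 and -0.64 with median scaling, and -4.79 and -1.98 with reference gene scaling.

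Of the TGF-beta genes, Tgfbr1 was brighter at day 14 in both genotypes. Tgfbr1, the type I receptor, had 35992 in HET callus at day 14 and 7736 at day 10, against 24732 in WT callus at day 14 and 15978 at day 10. Both day 14 densities exceeded both day 10 densities, by 4.65-fold in HET callus and 1.55-fold in WT callus. Tgfbr2, the type II receptor, had 378 in HET callus at day 14 and 228 at day 10, against 1177 in WT callus at day 14 and 1786 at day 10, so the genotypes ran in opposite directions. Tgfb1, the ligand abundant in bone matrix, had 244 in HET callus at day 14 and 242 at day 10, against 917 in WT callus at day 14 and 631 at day 10. The density of Tgfb1 was level between days in HET callus, and its normalized difference of 2.29 there is again relative to the dimmer array. Tgfb3 was lower at day 14 in each genotype, with 17891 in HET callus at day 14 and 36904 at day 10, against 32809 in WT callus at day 14 and 48664 at day 10, at the ceiling. Tgfb2, Tgfbr3, Eng and Smad1 were above background in HET callus only at day 10 and do not enter the list's median there. That median was 2.33 over 4 genes, 3 of them at least 2-fold higher, beside 0.00 and 29.8% over all genes. In WT callus it was 0.01 over 6 genes, 1 of them higher, beside -0.16 and 16.9%. On measured values these medians were 0.80 in HET callus and -0.35 in WT callus without normalization, 2.48 and 0.06 with median scaling, and -0.76 and -1.27 with reference gene scaling. Whether the genotypes differ in this was not tested.

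Among inflammatory genes the widest fold of density between days was that of Ptgs2, which encodes the inducible cyclooxygenase COX-2 that makes prostaglandins in early fracture repair. Ptgs2 had 213 in HET callus at day 14 and 5445 at day 10, against 749 in WT callus at day 14 and 2241 at day 10. Both day 14 arrays were below both day 10 arrays, by 25.6-fold in HET callus and 2.99-fold in WT callus, and the normalized differences were -2.93 in HET callus and -1.22 in WT callus. Tnf, an inflammatory cytokine, had 199 in HET callus at day 14 and 203 at day 10, against 1112 in WT callus at day 14 and 407 at day 10, below background. Tnf was thus level in HET callus and at least 2.27-fold brighter at day 14 in WT callus. The chemokine genes Ccl2 and Cxcl1, which recruit monocytes and neutrophils, were below background in HET callus at day 14. In WT callus Ccl2 had 1097 at day 14 and 1716 at day 10, and Cxcl1 had 2283 at day 14 and 1759 at day 10. The list holds 12 inflammatory genes. In HET callus 1 of 2 was at least 2-fold higher and 1 lower, beside 29.8% and 17% over all genes. In WT callus 1 of 10 was higher and 1 lower, beside 16.9% and 19.5%. The list's medians were -0.23 in HET callus and -0.18 in WT callus, beside 0.00 and -0.16 over all genes. On measured values these were -2.05 in HET callus and -0.96 in WT callus without normalization, -0.36 and -0.54 with median scaling, and -3.60 and -1.88 with reference gene scaling.

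The macrophage scavenger receptor Msr1 was lower at day 14 in density in both genotypes. It had 11617 in HET callus at day 14 and 33880.1 at day 10, against 5529 in WT callus at day 14 and 36155 at day 10. The days did not overlap, with Msr1 2.92-fold lower in HET callus and 6.54-fold lower in WT callus, and its normalized differences were -0.40 in HET callus and -2.73 in WT callus. Cd36, a fatty acid and thrombospondin receptor of macrophages, fat cells and small vessels, had 2775 in HET callus at day 14 and 6299 at day 10, against 2646 in WT callus at day 14 and 4665 at day 10. Cd36 was also lower on both day 14 arrays. The median of the pair was -0.62 in HET callus and -1.72 in WT callus. It was -1.35 in HET callus and -1.79 in WT callus without normalization, 0.33 and -1.38 with median scaling, which turns the sign in HET callus, and -2.91 and -2.71 with reference gene scaling.

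Proteases and their inhibitors divided by gene. Mmp9, the gelatinase of osteoclasts and of vessel invasion into cartilage, had 5419 in HET callus at day 14 and 1865 at day 10, against 10506 in WT callus at day 14 and 8674 at day 10. Mmp9 was 2.91-fold brighter at day 14 in HET callus and 1.21-fold brighter in WT callus. Mmp2, a gelatinase of mesenchymal cells, had 119.8 in HET callus at day 14, below background, and 494 at day 10, against 571 in WT callus at day 14 and 1452 at day 10. Mmp2 was at least 2.60-fold lower in HET callus and 2.54-fold lower in WT callus. The inhibitors of these enzymes also parted. Timp1 had 1690.5 in HET callus at day 14 and 474 at day 10, against 4204 in WT callus at day 14 and 2552 at day 10, brighter at day 14 by 3.56-fold in HET callus and 1.65-fold in WT callus. Timp2 had 5031 in HET callus at day 14 and 9723 at day 10, against 7492 in WT callus at day 14 and 37068 at day 10, dimmer at day 14 in each genotype. The list holds 10 genes. In HET callus 2 of 4 were at least 2-fold higher and 1 lower, beside 29.8% and 17% over all genes. In WT callus 2 of 8 were higher and 3 lower, beside 16.9% and 19.5%. The list's medians were 0.55 in HET callus and -0.41 in WT callus, beside 0.00 and -0.16 over all genes. On measured values these were 0.32 in HET callus and -0.80 in WT callus without normalization, 2.0 and -0.38 with median scaling, and -1.23 and -1.71 with reference gene scaling.

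The array holds 16 inhibitors of angiogenesis. In HET callus 2 of 7 were at least 2-fold higher and 1 lower, beside 29.8% and 17% over all genes. In WT callus 2 of 12 were higher and 2 lower, beside 16.9% and 19.5%. The list's median was -0.39 in HET callus and -0.25 in WT callus, beside 0.00 and -0.16 over all genes. On measured values it was -0.94 in HET callus and -0.70 in WT callus without normalization, 0.74 and -0.28 with median scaling, which turns the sign in HET callus, and -2.50 and -1.62 with reference gene scaling. Serpinf1, which encodes the antiangiogenic factor PEDF, had 5148 in HET callus at day 14 and 1115 at day 10, against 4633 in WT callus at day 14 and 5484 at day 10. It was 4.62-fold brighter at day 14 in HET callus and 1.18-fold dimmer in WT callus. Among the thrombospondins, Thbs3 had 313 in HET callus at day 14 and 827 at day 10, against 1352 in WT callus at day 14 and 3859 at day 10. Thbs4, which is not on the list of inhibitors and not in its counts, had 1334 in HET callus at day 14 and 2373 at day 10, against 3052 in WT callus at day 14 and 9228 at day 10. Both were dimmer at day 14 in each genotype, Thbs3 by 2.64-fold in HET callus and 2.85-fold in WT callus and Thbs4 by 1.78-fold in HET callus and 3.02-fold in WT callus. Adamts8, an antiangiogenic metalloprotease, had 30.0 in HET callus at day 14, below background, and 1519.7 at day 10, against 6295 in WT callus at day 14 and 2462 at day 10. Adamts8 was at least 7.99-fold dimmer at day 14 in HET callus and 2.56-fold brighter in WT callus.

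Among the 45 genes measured in both genotypes, 14 normalized differences were above 0 in each genotype, 18 below 0 in each, 8 of opposite sign and 5 at 0 in at least 1. The 8 were Adamts8, Angpt2, Chga, Rsn, Serpinf1, Tgfa, Tgfbr2 and Thbs3. Rsn, an older name of Clip1, which encodes a microtubule-binding protein, had 874 in HET callus at day 14 and 1679 at day 10, against 11985 in WT callus at day 14 and 5338 at day 10. Rsn was 1.92-fold dimmer at day 14 in HET callus and 2.25-fold brighter in WT callus. Rnase4, a secreted ribonuclease, had 6611 in HET callus at day 14 and 34814 at day 10, against 34732 in WT callus at day 14 and 45834 at day 10, at the ceiling. It was dimmer at day 14 in both genotypes. With 1 array per genotype and day, a difference between genotypes in the effect of day could not be tested for any of these genes.

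The other genes were dim or, on normalized values, less than 2-fold apart in WT callus. Adamts1, Col18a1, Efna2, Eng, F2, Pdgfa, Pdgfb, Ptgs1 and Smad1 were above background on the HET array of day 10 and on no other. In WT callus Egf, Ets1, Id1 and Ifnb1 were above background only at day 14, and Csf3, Cxcl4, Ifna1 and Ifng only at day 10. Edg1, Erbb2, Fgf6, Igf1, Il10, Il12a, Pdgfrb, Plau, Serpinb5, Tgfa, Tgfb2 and Tgfbr3 were above background on both WT arrays. Their normalized differences in WT callus lay between -0.82 for Fgf6 and 0.85 for Erbb2, so none reached 2-fold on that scale. In density Fgf6 was 2.04-fold lower at day 14 in WT callus and at least 5.39-fold lower in HET callus. In HET callus Tgfa alone of these 12 was above background at day 14. The 8 transcription and signalling genes on the array include Hif1a, Ets1, Id1 and Smad1. In HET callus 0 of 2 were at least 2-fold apart, beside 29.8% higher and 17% lower over all genes. In WT callus 1 of 5 was higher and 1 lower, beside 16.9% and 19.5%. The list's medians were 0.07 in HET callus and 0.10 in WT callus, beside 0.00 and -0.16 over all genes. On measured values these were -0.47 in HET callus and -0.06 in WT callus without normalization, 1.21 and 0.35 with median scaling, and -2.02 and -0.98 with reference gene scaling.

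The hypoxia arrays of the same genotypes and days carry 12 of the 100 genes, and the labels do not say whether the same pools were used. They were dimmer at day 14 too. The median density of their 100 genes was 22.3 in HET callus at day 14 and 926 at day 10, against 77.7 in WT callus at day 14 and 184 at day 10. The densities below are not scaled for this. Hif1a had a density of 4766 in HET callus at day 14 and 18939 at day 10 on the hypoxia arrays, against 15394 in WT callus at day 14 and 30822 at day 10. Hif1a of HET callus at day 10 was thus brighter than that of WT callus at day 14, unlike on the angiogenesis arrays. On the hypoxia arrays its day 14 density was 0.252-fold that of day 10 in HET callus and 0.500-fold in WT callus, where the angiogenesis arrays showed nearly level values. Ppia had 25757 in HET callus at day 14 and 49131 at day 10 on the hypoxia arrays, against 34201 in WT callus at day 14 and 48995 at day 10, so it was dimmer at day 14 there and brighter at day 14 on the angiogenesis arrays. Gapdh had 28630.0 in HET callus at day 14 and 49613 at day 10 on the hypoxia arrays, against 47419 in WT callus at day 14 and 48699 at day 10, mostly at the ceiling. Chga, the granule protein of endocrine cells, had 47326 in HET callus at day 14 and 20635 at day 10 on the hypoxia arrays, against 33629 in WT callus at day 14 and 12413 at day 10. On the angiogenesis arrays Chga had 6674 in HET callus at day 14 and 28587 at day 10, which is lower at day 14. In WT callus it had 39641 at day 14 and 42232 at day 10 there, a nearly level 0.939-fold. Normalized differences of the hypoxia arrays can run against their densities, as for Hif1a, at 2.16 in HET callus and 1.23 in WT callus, so the array types are set side by side by density.

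**Figure D5:**
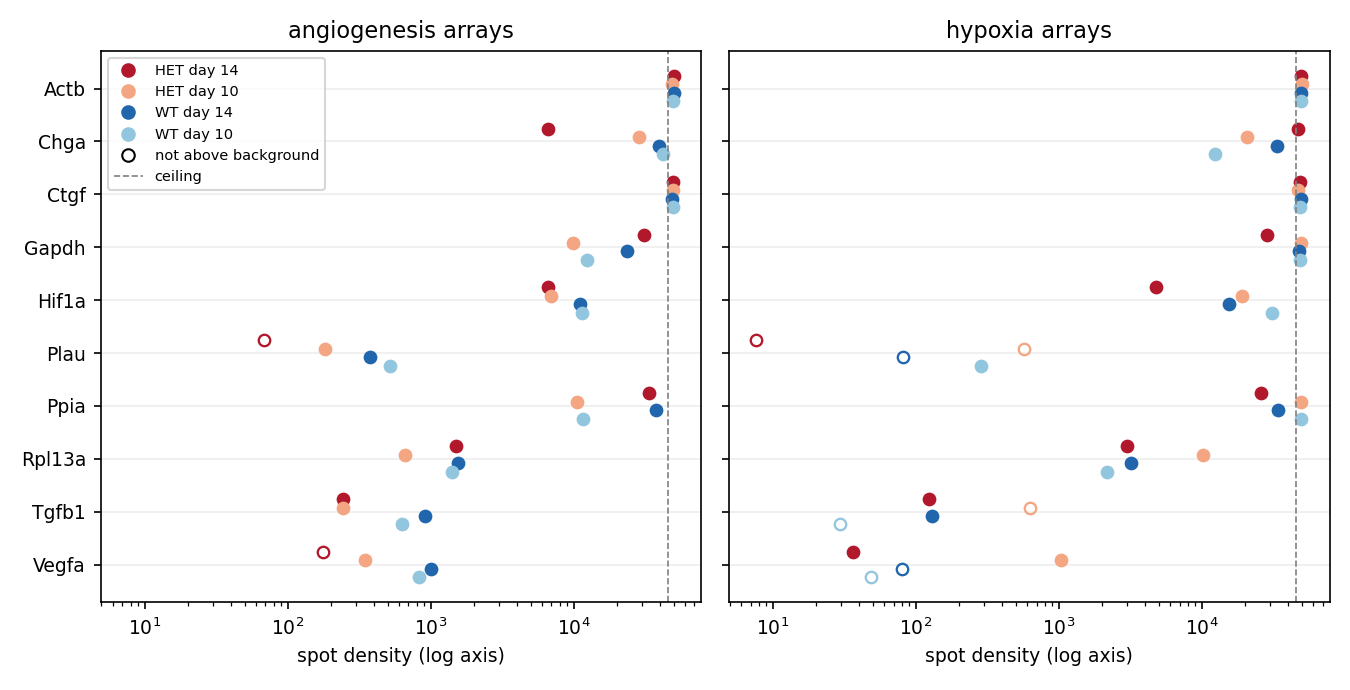
Spot density (log axis) of the 10 shared genes above background on at least 1 array of each type, on the angiogenesis arrays at left and the hypoxia arrays at right, with open points not above background. Ppia and Gapdh lie further right at day 14 than at day 10 on the angiogenesis arrays, and on the hypoxia arrays their day 14 points lie at or left of their day 10 points.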

How the data were processed

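Total RNA of fracture callus was measured on focused membrane arrays of 112 spots, 106 for the 100 genes and 6 controls, 1 array per genotype and day. The scanner tables hold an average density per spot, an intensity on a linear scale, per the file headers, with no background column. The deposited series matrix gives ratio values, 1 per spot. Every filled one (45 and 51 of 112 spots on the HET arrays of days 14 and 10, against 56 and 64 on the WT arrays of days 14 and 10) equalled the density minus the array's lowest, over the mean Actb density minus that lowest, within 1e-04. It is thus linear, uncentred and runs the way of the densities. Its column medians were 0.131 and 0.158 for the HET arrays of days 14 and 10, against 0.12 and 0.0975 for the WT arrays of days 14 and 10. The sources used here give neither the rule that emptied the other spots nor the software behind the densities.

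Here, densities were corrected by normexp on all spots with an offset of 25.9 (10% of the median gene spot density of 259.0 over the 12 arrays), taken to log2, averaged per gene and quantile normalized over the 4 arrays (limma 3.58.1, R 4.3.3). A bound used the dimmest gene above background on the dim array or the gene's own value, whichever was higher. The ceiling was 90% of the highest density on any array. Day was tested with lmFit and eBayes, two-sided, with Benjamini-Hochberg adjustment over every gene above background on any array. The arrays are pools, so p-values measure no spread between animals, and their number limits precision. Genes named were the 10 highest and 10 lowest mean differences of one direction in both genotypes, the 5 highest and lowest within each genotype, those at least 2-fold apart in opposite directions, the 5 lowest p, Hif1a, the reference genes, the members of the lists and the genes on the hypoxia arrays. The members and lists were chosen with earlier results of these data known. The 3 other normalizations, day 7 arrays, background, ceiling and filter settings and the deposited ratios were tried as alternatives. Of the 100 symbols, 94 are current in RefSeq (GRCm38.p6) and 6 are older names. The array files pair no probe with a position. Promoter sequences are RefSeq's (GRCm38.p6); all 4 genes matched. The scripts were tested on simulated data. 1 gene of the array is not reported by name here.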

Additional observations from a re-analysis of the deposited data

Results flagged for a closer look

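Adamts8 was the 1 gene whose normalized day 14 minus day 10 differences were at least 2-fold in opposite directions in the genotypes, at least 1.29 log2 units lower in HET callus and 2.02 higher in WT callus, a gap of -3.31 as HET minus WT that is itself a bound. The opposite 2-fold call ended with reference gene scaling, where the WT difference was 0.43, and with quantile normalization over all 6 angiogenesis arrays, where the HET difference was -0.93. Its density was 30.0 in HET callus at day 14, below background, and 1519.7 at day 10, against 6295 in WT callus at day 14 and 2462 at day 10. The difference between the genotypes was not tested, since each genotype and day has 1 array.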

How the results depend on the processing

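Counts of genes at least 2-fold apart depended mainly on the scaling between arrays. With no normalization they were 31 lower in HET callus, and 3 higher and 15 lower in both genotypes. With reference gene scaling they were 2 higher and 68 lower in HET callus, 3 higher and 46 lower in WT callus, and 1 higher and 40 lower in both. That scaling also gave 30 genes past the limma test, all lower at day 14 (lowest adjusted p 0.00565), against 0 with every other setting run, where the lowest limma adjusted p ranged from 0.10 to 0.35. Quantile normalization over all 6 angiogenesis arrays gave 8 lower in WT callus and 1 lower in both genotypes. With 1 control limit for all 4 arrays, 55 genes were above background in HET callus at day 10, and 9 were higher and 5 lower in HET callus. Without the filter on dim genes 23 were higher and 20 lower in HET callus and 9 lower in both genotypes. The authors' deposited ratios, filled for fewer genes, gave 7 higher in HET callus, 5 higher and 9 lower in WT callus, and 2 higher and 6 lower in both. The other counts of genes stayed within 1.5 times. With no normalization 1 difference of at least 2-fold changed sign, that of Fgfr3 in HET callus, to -0.0015. Smaller differences changed sign there too, among them Pecam1 from 0.62 to -0.95 and Thbs3 from 0.35 to -1.25 in HET callus. Median scaling turned smaller differences as well, among them Cd36 to 0.52, Thbs4 to 0.90 and Timp2 to 0.74 in HET callus. Reference gene scaling turned many smaller differences, among them Vcam1 to -0.40 in HET callus and -0.38 in WT callus. Of differences of at least 2-fold, it changed the sign of these in HET callus: Fgfr3 to -1.56, Rpl13a to -0.22, Tgfb1 to -1.12, Tgfbr2 to -0.40 and Tnf to -1.07. In WT callus Itga5 became -0.11, Itgav -0.48, Tgfbr1 -0.29 and Timp1 -0.21. Of the means over both genotypes, Fgfr3 became -0.14, Mmp9 -0.31, Rpl13a -0.54, Serpinf1 -0.23, Tgfb1 -0.79, Tgfbr2 -0.999, Tnf -0.43 and Vegfb -0.24. The reference genes were themselves brighter at day 14, and the reason was not tested. An offset of 50, no background correction or a ceiling at 95% changed the sign of no difference of at least 2-fold. The limma fit sets day 14 against day 10 within each genotype, and no other pairing could be made, since each group has 1 array and the labels give no replicate numbers. Control spots limit what is seen of dim genes, most of all in HET callus at day 14.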
